A study of Mus musculus with 2 samples.

Results

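Sap130 peaks named for long non-coding transcripts make up 500 of the 16697 peaks in the authors' table of embryonic mouse heart. They are the rows whose named transcript carries a RefSeq accession for a non-coding transcript, leaving out names that begin with Mir, Snord, Snora, Scarna or Snhg and 8 well known RNAs (Malat1, Neat1, Tug1, Meg3, Rian, Mirg, H19 and Kcnq1ot1). The 500 peaks carry 398 gene names and 401 transcripts. Another 147 non-coding rows fell under the names left out, and 14524 peaks were named for a coding transcript, which serve here as the comparison. The study holds 2 libraries of wild-type B6 heart, 1 precipitated with a rabbit antibody against Sap130 at E13.5 and 1 of input DNA whose age label reads E13.6. No library was replicated, so no test between groups was possible. Every interval printed below is a 95% exact Clopper-Pearson interval that covers counting error only. The table gives positions and names but no reads, heights or enrichment, so library depth is unknown. The label of the tissue could not be checked against marker genes.

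Sap130 is a subunit of the Sin3 complex, which carries histone deacetylases to chromatin. Long non-coding RNAs are capped transcripts without a long reading frame, and many start beside a coding gene and run away from it on the other strand, so that both share a promoter. Others, among them Xist and Airn, act on the chromatin of their own chromosome. The assay cannot tell which of 2 neighbouring starts a peak belongs to: the name in the table is the authors' assignment, and it is treated here as a position, not as a target.

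The name does not always stand for a long non-coding gene. In RefSeq, 385 peaks (298 names) belonged to genes typed as long non-coding, 66 (57 names) to non-coding transcripts of protein-coding genes, such as Brd2, a reader of acetylated histones, and 27 (24 names) to pseudogenes. Another 15 peaks (12 names) carried the name of a gene that RefSeq places on another chromosome. Small structural RNAs took 6 peaks, 1 each for Terc, the telomerase RNA, Rpph1 and Rmrp, the RNAs of RNase P and RNase MRP, Rnu11, a minor spliceosomal RNA, AF357399, a small nucleolar RNA, and Rn4.5s. A single peak, of Rn45s, the ribosomal RNA precursor, matched no RefSeq gene. By current symbol, 11 of the 500 peaks belong to hosts of the kind left out, such as Gm11974, now Snhg15. Of the 398 names, 298 end in Rik or begin with Gm, as provisional mouse names do, and 252 of these still have such a symbol in RefSeq.

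The sequences show what some of the named starts look like. Each is RefSeq's window of 300 bases on GRCm38.p6, from 250 bases before the start to 50 after it, in the direction of the transcript. Shown first are the windows of the earliest genes in the authors' order, then those of the earliest genes with a coding start close by on the other strand. Among the first, Sec14l1 and 0610012G03Rik are typed as coding in RefSeq, so their windows are not those of long non-coding genes. Capitals mark matches, on either strand, to the GC box GGGCGG, the ETS core CCGGAAGT, the CCAAT box, the TATA box in its TATAAA form and the E-box in its CACGTG form.
3110056K07Rik: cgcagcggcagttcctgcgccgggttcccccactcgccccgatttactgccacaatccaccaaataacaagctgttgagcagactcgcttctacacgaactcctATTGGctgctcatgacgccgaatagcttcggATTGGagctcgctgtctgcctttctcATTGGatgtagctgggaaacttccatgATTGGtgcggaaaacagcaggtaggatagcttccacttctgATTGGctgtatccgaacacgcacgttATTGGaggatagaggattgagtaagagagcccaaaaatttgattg
Sec14l1: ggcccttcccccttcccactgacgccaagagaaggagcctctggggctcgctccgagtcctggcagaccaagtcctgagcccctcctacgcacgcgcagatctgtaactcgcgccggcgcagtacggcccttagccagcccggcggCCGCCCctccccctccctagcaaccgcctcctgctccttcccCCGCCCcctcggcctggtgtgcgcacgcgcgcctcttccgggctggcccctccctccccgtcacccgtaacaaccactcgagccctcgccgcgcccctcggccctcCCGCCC
0610012G03Rik: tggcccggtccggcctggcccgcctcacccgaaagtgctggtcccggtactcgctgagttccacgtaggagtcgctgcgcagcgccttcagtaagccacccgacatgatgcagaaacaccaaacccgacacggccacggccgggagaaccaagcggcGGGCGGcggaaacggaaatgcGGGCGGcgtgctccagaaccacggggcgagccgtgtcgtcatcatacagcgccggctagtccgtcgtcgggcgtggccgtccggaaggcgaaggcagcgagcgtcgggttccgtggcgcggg
2310068J16Rik: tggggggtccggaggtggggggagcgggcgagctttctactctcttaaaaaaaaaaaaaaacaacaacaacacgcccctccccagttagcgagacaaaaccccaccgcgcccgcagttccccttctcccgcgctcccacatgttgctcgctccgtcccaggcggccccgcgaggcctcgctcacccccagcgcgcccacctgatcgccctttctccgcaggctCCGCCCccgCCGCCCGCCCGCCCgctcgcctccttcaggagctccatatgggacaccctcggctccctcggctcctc
E130304I02Rik: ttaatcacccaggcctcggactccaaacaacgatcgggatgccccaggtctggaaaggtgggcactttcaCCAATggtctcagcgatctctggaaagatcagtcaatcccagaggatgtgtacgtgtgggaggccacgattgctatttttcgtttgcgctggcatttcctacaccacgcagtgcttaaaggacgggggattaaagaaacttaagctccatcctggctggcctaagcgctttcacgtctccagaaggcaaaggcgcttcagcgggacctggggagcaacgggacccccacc
4933408J17Rik: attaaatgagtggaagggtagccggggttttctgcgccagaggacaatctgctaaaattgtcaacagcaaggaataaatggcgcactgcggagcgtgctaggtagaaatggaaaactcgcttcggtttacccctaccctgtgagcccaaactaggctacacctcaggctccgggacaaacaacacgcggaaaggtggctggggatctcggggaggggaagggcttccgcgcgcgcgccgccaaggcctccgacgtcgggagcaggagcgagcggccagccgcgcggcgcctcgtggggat
They lie at chr12:71015774-71016073 (minus strand), chr11:117114918-117115217 (plus), chr16:31948456-31948755 (minus), chr15:99973238-99973537 (minus), chr7:35802342-35802641 (plus) and chr10:93589163-93589462 (plus).

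The window of 3110056K07Rik held 6 CCAAT matches, all read as ATTGG on the strand shown, and 16 CG dinucleotides. Its own peak overlapped the window by 0 bases. The start of Arid4a, which encodes a retinoblastoma-binding protein found in Sin3 complexes, lies inside this window, 145 bp upstream on the other strand. The other 5 windows lay whole within the peak named for them. GC boxes numbered 3 in the Sec14l1 window, 2 in that of 0610012G03Rik and 4 in that of 2310068J16Rik, which starts 506 bp from Larp4, an RNA-binding protein of the La-related family. The window of E130304I02Rik, 396 bp from the zinc finger gene Zfp507, held 1 CCAAT, and that of 4933408J17Rik, 244 bp from Snrpf, a core protein of the spliceosome, held no match to the 5 motifs.

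Over the 295 member genes with a RefSeq window, the median window held 22 CG dinucleotides (quartiles 14 and 30). Coding genes with a promoter peak, one whose midpoint lies within 1 kb of the named start, also had a median of 22, long non-coding genes without a named peak one of 4 (quartiles 2 and 7), and all 32851 windows one of 7. At least 1 GC box stood in 66.4% of the members' windows and in 66.7% of those of coding genes with a promoter peak. The share was 15.1% for long non-coding genes without a named peak and 35.7% for all windows. A long non-coding gene without a named peak can still start inside a peak named for a coding gene. The members' windows are of all gene kinds, coding genes among them. TATAAA was found in 18 of 295 members' windows, 6.10%, and in 4473 of the 32851, the ETS core in 7.12% and 3.89%, the E-box in 12.2% and 7.15%, and CCAAT in 35.3% and 37.4%. The NRF1 and YY1 motifs, also searched, were present in 1.69% and 1.02% of the members' windows, against 0.971% and 0.633% of all. Members with a coding start within 1 kb on the other strand had a median of 27 CG dinucleotides in 125 windows, the others one of 18 in 170. The members' median CG count thus equalled that of coding genes with a promoter peak. A match describes the letters of a window and not a bound site.

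Most of the 500 peaks lay at the start of the transcript they were named for. The midpoint fell within 1 kb of it for 404 peaks, 80.8% (95% interval 77.1 to 84.2), against 84.5% of coding-named peaks. The start itself lay inside 283 peaks, 56.6% (52.1 to 61.0), against 62.9%. Peaks centred upstream of the start numbered 163, 32.6% (28.5 to 36.9), against 22.6% of coding-named peaks. By place, 172 peaks were centred in the first exon, 125 within 1 kb upstream, 110 in an intron within 1 kb of the start, 38 farther upstream, 29 farther down an intron, 12 in a later exon and 14 past the end of the transcript. The named transcripts were short, with a median of 3 exons and a span of 6748 bp, against 9 exons and 23833 bp for coding-named peaks, and 20.2% had 1 exon, against 2.80%. On chromosome X lay 25 peaks, 5% (3.26 to 7.29), against 2.90% of coding-named peaks.

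**Figure D1:**
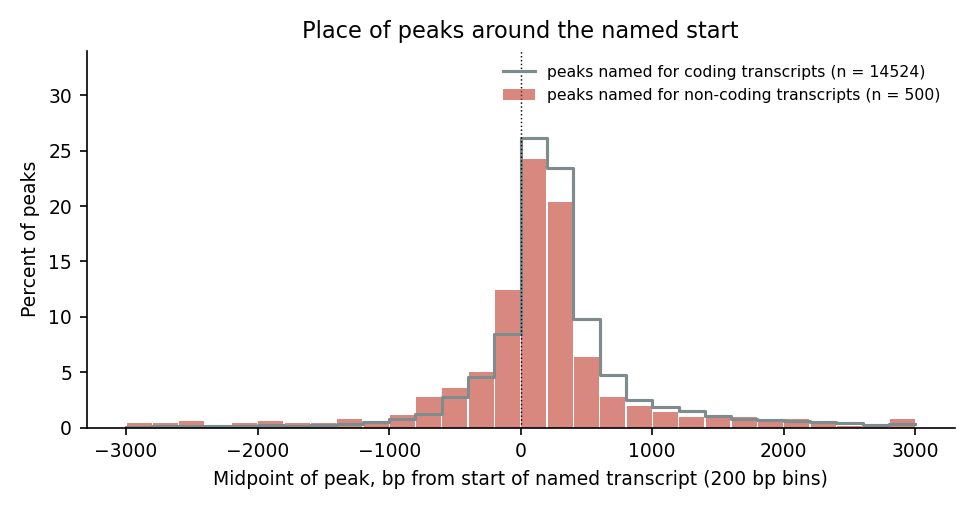
Percent of peaks by distance from the midpoint of the peak to the start of the named transcript, in bins of 200 bp, for the 500 non-coding peaks (bars) and the 14524 coding-named peaks (line). Both pile up just downstream of the start, with 24.2% and 26.1% in the first 200 bp, while the 200 bp upstream hold 12.4% of the non-coding and 8.43% of the coding-named peaks.

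The non-coding peaks were narrower and later in the table than the coding-named ones at the median, with wide overlap. Width had a median of 636 bp (quartiles 378 and 1068, range 207 to 4837), against 722 bp. Position, counted from 1 at the top of the authors' order, had a median of 9561 (range 49 to 16593), against 7739.5. No source used here states what the order was sorted by, so a position is no measure of binding. Of the members, 28 were among the first 1000 peaks (5.6%, against 6.51%) and 213 among the first 8348 (42.6%, against 53.7%). The kinds of gene differed: the median position was 6384.5 for non-coding transcripts of coding genes, 10256 for genes typed as long non-coding and 11509 for pseudogenes.

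**Figure D2:**
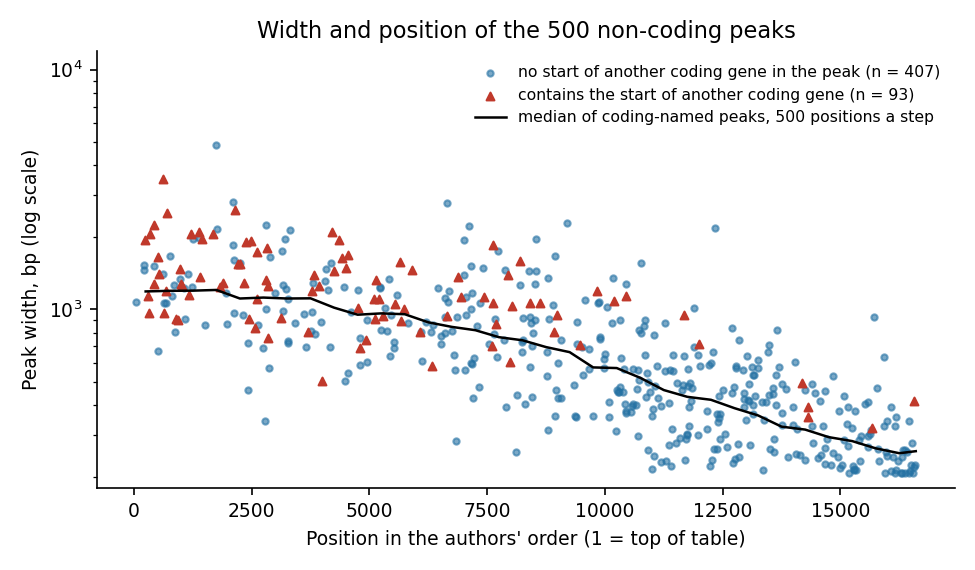
Width of each of the 500 peaks on a log scale against its position in the authors' order, with triangles for the 93 peaks that contain the start of another coding gene and a line for the median width of coding-named peaks per 500 positions. The triangles lie mostly to the left, at a median position of 4245 against 10712 for the other 407 peaks; the coding median falls along the order.

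The member at the head of the order was 3110056K07Rik (chr12:71014665-71015738, mm10, position 49). Its peak of 1073 bp ended before the start of the transcript at 71015822 and was centred 620.5 bp downstream, in an intron. Next came Sec14l1, a coding gene named here by a non-coding transcript (position 214, 1462 bp), and 0610012G03Rik, typed as coding in RefSeq (position 217, 1528 bp). Both peaks held the named start. Then followed 2310068J16Rik at position 234, Nutf2-ps1 at 291, E130304I02Rik at 329, 9330151L19Rik at 345, 4933408J17Rik at 423, B930059L03Rik at 424, 4930577N17Rik at 436, 1700008J07Rik at 505, 4930455D15Rik at 521, A130049A11Rik at 528, Gm11974 at 618 and 0610009L18Rik at 628. Each of these 12 peaks held the start of its named transcript, and 9 of them also held the start of another gene, a coding one.

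The widest member peak, of 4837 bp at position 1740, lay over the start of Brd2. The next, of 3484 bp, lay at 0610009L18Rik and also held the start of Actg1, the cytoplasmic gamma actin. BC031361 followed with 2801 bp. That peak was centred 1581.5 bp upstream of its start at 38089259 on chromosome 16. The transcript overlaps Gsk3b, a kinase of Wnt signalling that starts 258 bp away on the other strand. Chaserr, which lies upstream of the chromatin remodeller gene Chd2, had a peak of 2773 bp, and E130317F20Rik one of 2594 bp that held the start of Ptbp1, a repressor of splicing.

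Most names had a single peak, 329 of 398, while 69 had 2 or more. The 500 member peaks fell on 401 transcripts and the 14524 coding-named peaks on 11327, so coding transcripts with several peaks occur too. The share of coding names with several peaks is not given here, so the 69 are not read as a trait of the members. C230035I16Rik had the most, 6 peaks from position 9578 to 16112 whose midpoints ran from 7049 bp upstream of its start to 245.5 bp downstream. Only 1 of these held the start. The 5 peaks of 2810410L24Rik ran downstream, from 819 to 4842.5 bp, with the earliest at position 2795 and 2250 bp wide. Gm15417, with 2 named starts, also had 5. Of the 4 names with 4 peaks, E130317F20Rik and Gm16793 had 1 wide peak over the start (positions 2142 and 3214, widths 2594 and 1972 bp) and narrower ones upstream. The other 2 differed: the earliest peak of 2310050B05Rik was 746 bp wide and did not hold its start, and the widest of Gm17762, 1565 bp, came at position 10771 and not first. The 5 peaks farthest from their start were those of Gm15446 (9796.5 bp upstream), Gm15408 (8839 bp downstream), 0610040F04Rik (7539.5 bp upstream), D630041G03Rik (7385.5 bp upstream) and 4930578M01Rik (7286 bp downstream). They were 207 to 566 bp wide and stood between positions 11367 and 16450.

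The coding neighbours of the members were close. A coding start named in the same table lay within 1 kb on the other strand for 83 of the 401 transcripts, 20.7% (95% interval 16.8 to 25), against 3.77% of 11327 coding transcripts. Such pairs are called head-to-head here. In 65 of these pairs the transcripts ran apart, and in 18 they overlapped. With the coding starts of RefSeq added to those of the table, 159 transcripts had such a neighbour, 39.7% (34.8 to 44.6), against 9.80%. Of these, 90 ran apart and 69 overlapped, at a median of 247 bp between starts. The 140 of 301 transcripts of genes typed as long non-coding made 46.5%, and the 10 of 57 of coding genes 17.5%. No coding start of another gene stood within 10 kb in either direction for 163 transcripts, 40.6% (35.8 to 45.6), against 74.3% of coding transcripts. A member's own coding start, where its gene is typed as coding, does not count here. RefSeq's table of starts is not complete, so these counts are of listed starts.

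**Figure D3:**
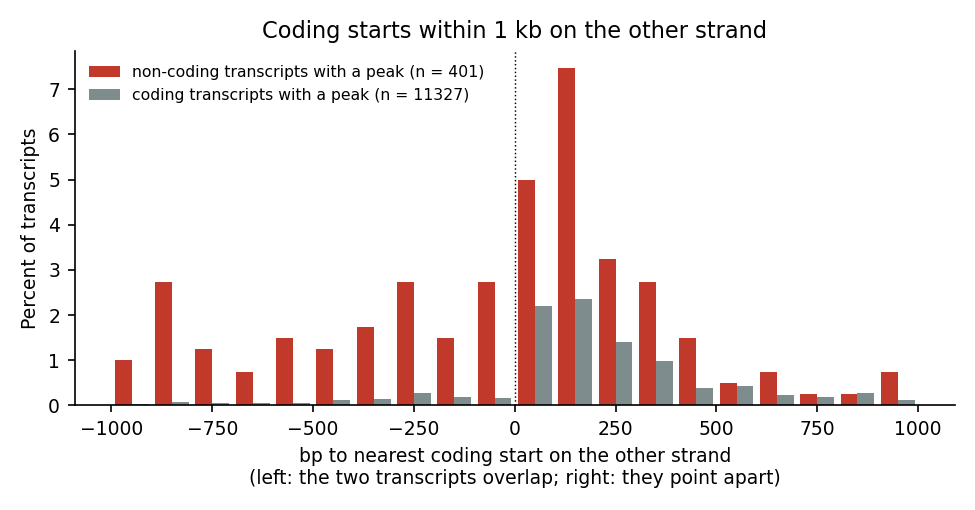
Percent of transcripts by distance to the nearest coding start on the other strand, in bins of 100 bp up to 1000 bp, for the 401 non-coding and 11327 coding transcripts with a peak; bins to the right hold transcripts that run apart and bins to the left those that overlap. The highest non-coding bar, 7.48%, is at 100 to 200 bp apart, where coding transcripts have 2.36%, and overlapping pairs come to 17.2% against 1.18% in all.

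The same arrangement was less common among long non-coding genes of RefSeq that no member peak was named for. A listed coding start lay within 1 kb on the other strand for 106 of 249 with a member peak, 42.6% (36.3 to 49.0). Among those without one it was 1064 of 9284, 11.5% (10.8 to 12.1). Any long non-coding gene whose peaks the rule left out counts among those without one. The 9284 were not limited to genes with a curated transcript, while members were named by such a transcript. The groups thus also differ in annotation. Long non-coding genes with a promoter peak named for them were 284 of 3313 with a curated transcript, 8.57%. Coding genes with one were 10599 of 20949, 50.6%. Each peak carries 1 name, so a start that lies in a peak named for another gene is not counted here. Member peaks at transcripts with such a neighbour had a median width of 763 bp and a median position of 7573, the others 572 bp and 10444.5. Their midpoints lay within 1 kb of the named start for 156 of 182 peaks, 85.7% (79.8 to 90.5), and for 248 of 318 others, 78.0% (73.0 to 82.4).

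A minority of the peaks covered both starts. A coding start of another gene named in the table lay in 18 of the 500 peaks, 3.6% (2.15 to 5.63), against 0.337% of coding-named peaks. With RefSeq's starts added, 93 peaks held one, 18.6% (15.3 to 22.3), against 4.69%, and 88 of these held the start of the non-coding transcript too. Among all 500 peaks, 24 had a coding start of another gene nearer to the midpoint than the start of the named transcript. It lay inside the peak for 13 of them and outside it for 11. The 93 peaks had a median width of 1143 bp, the other 407 one of 544 bp, and a wider peak has more room for a start. The part of width in these counts was not tested.

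For 71 of 496 peaks off chromosome 18, 14.3% (11.4 to 17.7), the start held was that of a coding gene which the table names for no peak, against 4.11% of coding-named peaks. They brought in 72 coding genes, which a reading by the table's names alone would miss. The 5 earliest head-to-head pairs in 1 peak were of this kind. The peak of 2310068J16Rik (chr15:99972237-99974183, 1946 bp) held Larp4, with midpoint distances of 76 bp to the non-coding and 430 bp to the coding start. That of E130304I02Rik (chr7:35802185-35803150, 965 bp) held Zfp507, and that of 4933408J17Rik (chr10:93588810-93590082, 1272 bp) held Snrpf. The peak of 4930577N17Rik (chr3:51275750-51277999, 2249 bp) held Elf2, an ETS transcription factor, 752 bp away, and that of 1700008J07Rik (chr7:127511681-127513333, 1652 bp) held Srcap, the ATPase of a chromatin remodelling complex, 885 bp away. The peak of 9330151L19Rik held the start of Dnaaf2, which is needed to assemble the dynein arms of cilia, at 1217 bp. Of the 71 peaks, 13 were among the first 1000, as were 28 of all 500 members (5.6%) and 6.51% of coding-named peaks.

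Some of the other genes reached in this way are given here, chosen after their values were seen. Hnrnpk, an RNA-binding protein, starts 132 bp from Rmi1 in a peak of 2519 bp at position 714. Prdx1, a peroxiredoxin, starts 422 bp from AV051173 (position 1007), and Cct7, a subunit of the cytosolic chaperonin, 464 bp from Pradc1 (position 1210). Mrpl55 and Mrps21, proteins of the mitochondrial ribosome, start 56 bp from 2610507I01Rik (position 2337) and 9 bp from C920021L13Rik (position 8619). Cox10, needed to make the heme of cytochrome oxidase, starts 13 bp from 2810001G20Rik (position 5673). In the other direction, 654 of 14127 coding-named peaks, 4.63%, held the listed start of a long non-coding gene that no member peak was named for, so the 500 peaks are not all of the peaks over such starts.

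In the 83 pairs where the table names a peak for each partner, the coding peak came earlier in the order in 53 and was wider in 52. The median position was 8304 for the earliest non-coding and 5733 for the earliest coding peak, the median widths were 603 and 824 bp, and a median of 157 bp lay between the peaks. In 59 pairs neither peak held the start of the other gene. The non-coding peak held the coding start in 12 pairs, and the coding peak held the non-coding start in 12. The non-coding peak held its own start in 50 pairs and the coding peak in 52, but both did so in only 23. The pairs are thus not all comparisons of 2 starts. In 4 pairs the non-coding transcript belonged to a gene typed as coding. At 3110056K07Rik and Arid4a, the non-coding peak stood at position 49 and the coding peak of 1597 bp at 861. At C130036L24Rik and Ncl, which encodes nucleolin, the positions were 1969 and 3, with starts 120 bp apart. The pair of Gm15545 and Prmt1, an arginine methyltransferase, stood at 6860 and 86. At 0610009L18Rik and Actg1 the order was turned, with 628 for the non-coding and 12379 for the coding peak. There the peak at 628 also held the start of Actg1, and the peak of 319 bp at 12379 did not hold it. Gt(ROSA)26Sor, the locus used for transgenes, and Setd5 stood at 3278 and 5959, and Gas5 and Zbtb37 at 3312 and 2087. Neither partner was uniformly the earlier.

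**Figure D4:**
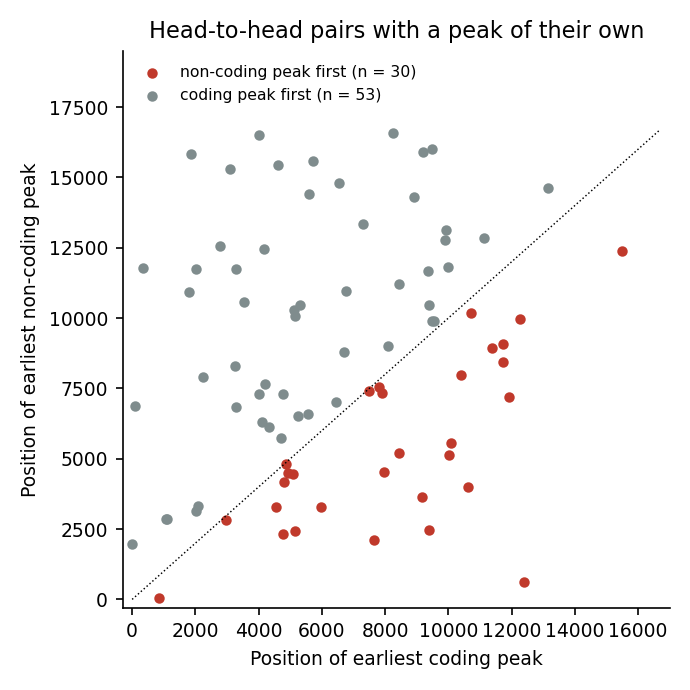
Position in the authors' order of the earliest non-coding peak against that of the earliest coding peak in each of 83 head-to-head pairs; the dotted line marks equal positions. In 53 pairs the coding peak comes first (grey, above the line) and in 30 the non-coding peak (red, below it).

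Of the 70 cardiac regulators listed, 67 had a listed start and 3 of these a member start within 1 kb. The same held for 174 of 19654 coding genes, 0.885%, and nothing is read from so small a count. AI314831, or Wt1os, starts 20 bp from Wt1, a transcription factor of the epicardium, on the other strand. Its peak was 244 bp wide, at position 15993, and held its own start. The Wt1 peak stood at 9483. A830082K12Rik overlaps Nr2f1, an orphan nuclear receptor, whose start named in the table lies 964 bp away. It had peaks at positions 9004 and 14528, and neither held its start. 5930403L14Rik starts 506 bp downstream of Prdm16, a zinc finger regulator on the same strand, and its peak of 1668 bp stood at position 8934. Dll4, a Notch ligand of endothelium, is not on that list, and was noticed afterwards: its start 412 bp from Gm14207 lay in the peak of Gm14207, 949 bp wide at position 11676.

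Of 68 names in a list of known long non-coding and structural RNAs, some of them older names of the same gene or of kinds left out by the rule, 22 were found among the members. They stood for 20 RNAs with 29 peaks. For comparison, 296 of the 3313 curated long non-coding genes of RefSeq, 8.93%, had a member peak. The list was written with results on these data known and with well studied RNAs in mind. It is no sample of those genes, and no excess is read from the 22. The start was held by a peak in 16, and 8 had a peak among the first 8348. The earliest was Oip5os1, also called Cyrano, a conserved RNA, with 1559 bp at position 2261. Crnde stood at 2892, with a further peak upstream at 9544. Gas5, which hosts small nucleolar RNAs in its introns, had a peak of 2153 bp at 3312. Epb41l4aos stood at 3974, Chaserr at 6652, Dleu2, a host of microRNAs, at 7108, Rab26os at 7649 and Jpx at 8231. All 8 of these peaks held the start.

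Among RNAs of imprinting and X inactivation, Airn, which silences Igf2r on the same chromosome, had a peak of 2300 bp at position 9193 that began just downstream of its start at 12741311. Gnasas1, an antisense RNA of the imprinted Gnas locus, had 3 peaks between positions 10606 and 14842, of which 1 held the start. On chromosome X, Jpx, an activator of Xist, had a peak of 663 bp over its start. Ftx had 3 peaks at 10998, 13137 and 14073, none at its start, centred 1136.5 to 7170.5 bp into the gene. Firre stood at 11071 and 15575. Xist, which coats the inactive X chromosome, had 1 peak of 402 bp at 15521, in its first exon 1460 bp downstream of the start. Norad, which binds Pumilio proteins, had a peak of 221 bp at 12226, Pvt1, the neighbour of Myc, one of 462 bp at 10256, and Tunar one of 375 bp at 15307. Terc stood at 10010, Rpph1 at 11999 in a peak that also held the start of Parp2, and Rmrp at 12441.

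**Figure D5:**
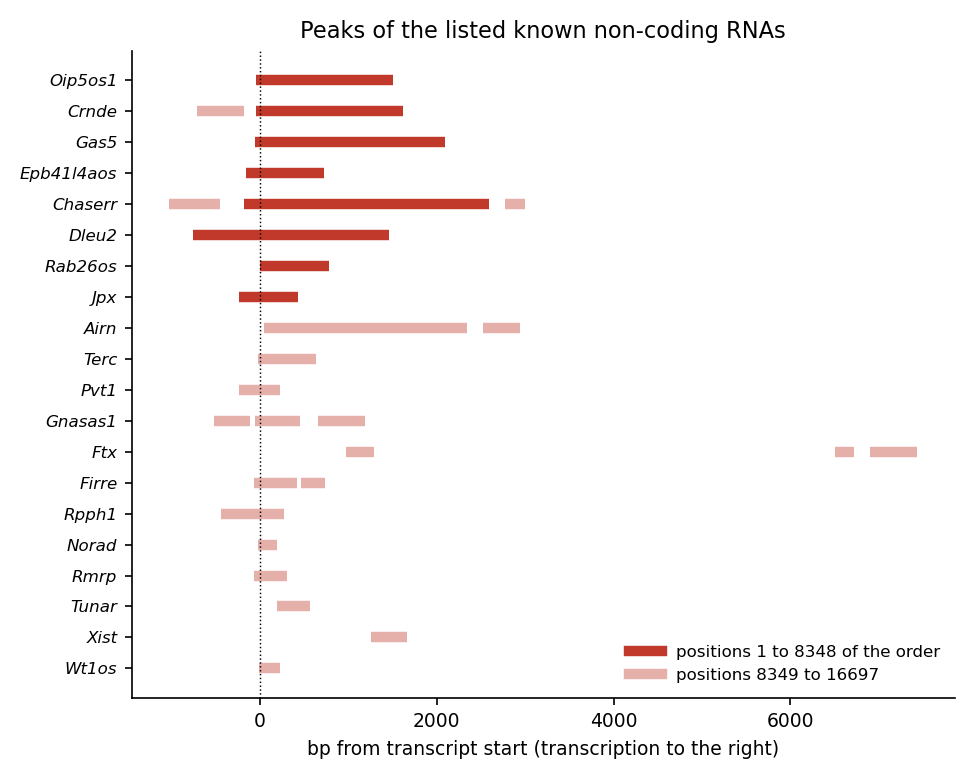
Span of each of the 29 peaks at the 20 listed RNAs, in bp from the start of the transcript with transcription to the right; dark bars stand at position 8348 or earlier in the authors' order and light bars later. All 8 dark bars cross the start, while the bars of Airn, Ftx, Tunar and Xist lie downstream of it.

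The 15 peaks named for a gene on another chromosome formed a group of their own. They carried 12 names of pseudogenes, and the transcripts that the table places there start 23 to 227 bp from a coding start on the same strand. Those coding genes include Nutf2, an import factor of the nuclear pore, Hnrnpa1 and Hnrnpa3, which bind RNA, Ubb, a polyubiquitin gene, Rpl26, a ribosomal protein, Oaz1, the ornithine decarboxylase antizyme, and Atp6v0c and Ndufs5, subunits of the vacuolar proton pump and of respiratory complex I. In 12 of the 15 peaks the coding start lay inside. The first was Nutf2-ps1 at position 291 (chr8:105860425-105861562), whose gene RefSeq places on chromosome 19. Their median position was 5469, earlier than the 9561 of all members. Processed pseudogenes resemble their parent genes in sequence, and these names are treated as uncertain. Gm9855, also a pseudogene name, lay off the span of its gene on the same chromosome, and its peak at 7438 held the start of Tdg, a DNA glycosylase.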

How the data were processed

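Chromatin of E13.5 mouse heart was precipitated with a Sap130 antibody in 1 library and set against 1 input library, per the labels. Bowtie 1.1.2, MACS2 2.1.0.20140616 and the builds GRCm38 and mm10 are named in the submitters' processing notes. Thresholds, duplicate handling and how names were assigned are not given in the sources that were used; they set which peaks exist and which of 2 near starts gives the name. The authors deposited 1 table of peak positions, transcript names and exons, per the file headers, with 1 name a peak. Peaks are printed as deposited, uncertain by 1 bp. Transcript starts count from 0, and 1 was added on the plus strand.

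Members were matched to RefSeq genes (GRCm38.p6) on the same chromosome, 454 peaks by accession, 23 by symbol, 7 by synonym and 16 not at all. A promoter peak has its midpoint within 1 kb of the named start. Starts on opposite strands within 1 kb, of any overlap, were called head-to-head. Coding starts came from the table alone or together with RefSeq's promoter table, which is not complete; its starts on chromosome 18 were not used, so counts from RefSeq alone leave out 4 transcripts there. For a transcript, windows within 100 bp of its start were taken.

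The members and the lists were chosen with earlier results of these data known. Named are the first 15 genes in the order, the 5 widest and 5 farthest peaks, the 5 genes with most peaks, the first 5 pairs in 1 peak, and members on or beside the listed RNAs and cardiac regulators; pairs cited for contrast were chosen after their values were seen. Counts of pairs that run apart and of held starts were checked on simulated data. The simulation had no overlapping pairs and did not use RefSeq's starts. Alternatives are given in the closing section. Python 3.11.15, NumPy 2.4.6, pandas 2.3.3, SciPy 1.17.1 and matplotlib 3.10.9 were used.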

Additional observations from a re-analysis of the deposited data

How the results depend on the processing

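Over 43 alternative values of 5 results, 23 stayed within the interval of the value reported and 20 moved. Some moves are set by the alternative itself, such as the position among early peaks or the width among wide ones. Coding-named peaks were not recomputed at these settings, so the contrasts with them were not checked. Among the first 8348 peaks the promoter share was 93.0%, the median width 1077 bp, the median position 4187, the head-to-head share by named starts 15.9% and the share of peaks holding a named coding start 1.41%. Peaks no narrower than the 682 bp median of the whole list gave 90.4%, 1092 bp, 5204, 11.5% and 2.09%. For both of these cuts the named coding starts were also taken only from the peaks kept. That by itself lowers the last 2 shares, so they do not show that early or wide peaks have fewer coding starts. With 1 peak a gene the promoter share was 89.4%, the width 749.5 bp and the position 8127. Windows of 500 bp and 3 kb gave promoter shares of 67.8% and 93.2%; 500 bp and 5 kb between starts gave head-to-head shares of 15% and 26.7%; and peaks widened by 100 bp held a named coding start in 6.2%. Coding starts of RefSeq added to those of the table, an alternative chosen after seeing the data, moved the last 2 results to 39.7% and 18.6%. Leaving out the 15 peaks named for a gene on another chromosome, also chosen after seeing the data, left all 5 results within their intervals. No paired analysis was possible because the study has 1 library of each kind. Depth is unknown, and a start without a peak says nothing of absence of Sap130.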
